A study of Mus musculus with 6 samples.

Results

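NF-kappaB is a family of transcription factors that T cells switch on when they are activated. The genes described here are its 5 subunits, Nfkb1, Nfkb2, Rel, Rela and Relb, and 5 genes whose products hold it back, Nfkbia, Nfkbib, Nfkbie, Nfkbid and Tnfaip3. They were chosen by name, and all 10 were found among the 11242 rows of the gene-level table that the authors deposited. In the transcript files, 22400 genes had a count in at least 1 sample, and the 10 members were among the 12925 that passed the filter on low counts and were tested.

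The study asked how loss of Cul5, the scaffold of a ubiquitin ligase complex, changes the fate of CD4+ T cells. Naive CD4+ T cells from C57BL/6 mice were activated with anti-CD3 and anti-CD28 and cultured for 48 h under Th9 conditions, that is with IL-4, TGF-β and an antibody to IFN-γ. WT samples came from Cul5 fl/fl littermates without Cre, and Cul5 cKO samples from Cul5 fl/fl mice carrying CD4-Cre, so that both genotypes carried the floxed allele. Poly-A libraries of 3 samples per genotype were sequenced. CD4-Cre acts in developing T cells, and the gene is therefore lost before the cells are activated. The labels name spleen as the source, and the design text adds lymph nodes. The mice were between 8 and 10 weeks of age, and all samples belong to 1 experiment. Whether each sample came from its own mouse is not given in the sources used here, so p-values measure the spread between these samples, which may be technical.

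In resting T cells, inhibitor proteins keep NF-kappaB dimers in the cytoplasm. Signals from the T cell receptor and CD28 pass through adaptor proteins and ubiquitin ligases to the IKK kinases, which mark the inhibitors for destruction and let the dimers of Rela, Rel and the Nfkb1 product p50 enter the nucleus. A slower route, set off by receptors of the TNF family, frees dimers of Relb with the Nfkb2 product p52. Several genes of the family, among them those for inhibitors, are themselves targets of NF-kappaB, which makes the system a feedback loop.

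Since feedback on NF-kappaB genes is known to act through kappaB sites, the promoters of the members were searched for the kappaB consensus. This is a 10-base motif of 3 G, a purine, any 2 bases, 2 pyrimidines and 2 C, read on both strands, and overlapping matches were kept. RefSeq promoter windows of 300 bases, from 250 before to 50 after a start site, were matched by symbol for 8 of the 10 members, and Nfkb1 and Relb had no entry. The motif was found in at least 1 window of 6 of these 8 members (75%), namely Nfkb2, Rel, Nfkbia, Nfkbie, Nfkbid and Tnfaip3, and in none of Rela and Nfkbib. Of all 27025 genes with a window, 2581 (9.55%) had it. Counted by window, it was found in 8 of 13 (61.5%), against 2779 of all 32851 windows (8.46%). For Nfkb2, 1 match lies in 2 overlapping windows and is counted in both. A match is a description of the letters, and binding was not measured. The stretches that hold the matches are printed from the strand of the gene, 5′ to 3′, with the matched bases in capitals. They are RefSeq sequences of GRCm38.p6, 130 bases long, except for Nfkb2, where an annotated exon overlaps the region and 30 bases are shown. These 30 bases hold 2 of the 3 matches of their window, and the other Nfkb2 windows are not shown.
Nfkb2 (chr19:46304688-46304717, plus strand): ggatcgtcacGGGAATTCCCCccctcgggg
Rel (chr11:23770971-23771100, minus strand): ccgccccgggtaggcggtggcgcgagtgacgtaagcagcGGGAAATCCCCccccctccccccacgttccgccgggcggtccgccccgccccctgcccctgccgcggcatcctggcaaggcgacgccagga
Nfkbia (chr12:55492649-55492778, minus strand): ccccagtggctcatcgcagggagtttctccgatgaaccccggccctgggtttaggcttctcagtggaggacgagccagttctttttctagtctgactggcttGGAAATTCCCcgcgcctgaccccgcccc
Nfkbie (chr17:45555569-45555698, plus strand): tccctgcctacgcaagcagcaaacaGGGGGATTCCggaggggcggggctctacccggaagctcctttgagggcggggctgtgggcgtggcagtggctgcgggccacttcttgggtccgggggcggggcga
Nfkbid (chr7:30422156-30422285, plus strand): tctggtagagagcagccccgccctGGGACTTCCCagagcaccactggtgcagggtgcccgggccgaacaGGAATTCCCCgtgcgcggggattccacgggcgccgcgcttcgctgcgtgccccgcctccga
Tnfaip3 (chr10:19015412-19015541, minus strand): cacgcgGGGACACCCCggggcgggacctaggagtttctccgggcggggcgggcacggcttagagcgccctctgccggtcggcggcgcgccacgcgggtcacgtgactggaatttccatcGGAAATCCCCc

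Libraries held between 23111689 and 23454552 estimated counts, except WT replicate 3 with 3944803. Cul5 was at 64.4, 69.3 and 65.0 CPM (counts scaled to library size) in the WT samples and at 10.6, 14.2 and 13.1 CPM in the Cul5 cKO samples, and its log2 fold change was -2.39 (SE 0.11, edgeR adjusted p = 0.000992). Here and below, fold changes are Cul5 cKO over WT, and an edgeR adjusted p is that of the quasi-likelihood test after Benjamini-Hochberg adjustment over every gene tested. Markers of T cells summed to 1392, 1433 and 1439 CPM in the WT samples and to 1255, 1265 and 1257 CPM in the Cul5 cKO samples, so that the genotypes did not overlap. They did not overlap without Cd28 either, at 1303 to 1314 and 1208 to 1212 CPM. Those of B cells summed to between 6.88 and 50.2 CPM, highest in Cul5 cKO replicate 3, those of myeloid cells to between 3.74 and 12.8 CPM with Fcgr1 and Cd14 under the floor of 3 counts in every sample, those of CD8 T cells to between 4.30 and 11.7 CPM, and those of NK cells to between 4.12 and 13.03 CPM with Ncr1 and Klra8 at 0 throughout. Their part in the results was not tested. Replicate 1 of both genotypes stood apart from replicates 2 and 3, and no label names a batch, so each genotype difference is given with all samples and for replicates 2 and 3 alone. That split was chosen from these same values and takes out the samples that widen the spread. Its p-values, and those with a term for replicate 1, do not allow for this choice. Of its 2 WT samples, 1 is the shallow replicate 3.

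No member passed the adjusted threshold when the genotypes were compared over all 6 samples with no term for the replicate, and Nfkb1 came nearest, with higher values in every Cul5 cKO sample. Rel was lower and Nfkbib higher in Cul5 cKO cells when replicates 2 and 3 were compared alone. With all samples and a term for replicate 1, edgeR called 4 members, Nfkb1, Nfkb2 and Nfkbib as higher and Rel as lower. That fit called 1688 of all 12925 genes tested. With no such term, 0 of the 10 members passed an adjusted p under 0.05. Of the 12925 genes tested, 133 (1.03%) did, 0.611% higher and 0.418% lower in Cul5 cKO cells. DESeq2 called 1 member, Nfkb1, where it called 5.94% of 11660 genes. At an unadjusted p under 0.05, 1 member passed, Nfkb1, against 21.3% of all genes tested. Without replicate 1, 2 of 10 members passed, where 8.83% of the 13055 genes tested did, 4.38% as higher and 4.45% as lower. By sign, Cul5 cKO cells had more of 8 members and less of 2, against 48.8% of all genes higher. Without WT replicate 1, Rela (-0.023), Relb (-0.092), Nfkbia (-0.16), Nfkbid (-0.32) and Tnfaip3 (-0.20) turned lower as well. Nfkb1, Nfkb2 and Nfkbib stayed higher in that fit, so the tilt by sign rested on that sample. With all samples, the median over the members was 0.18 on the log2 scale, and that over all genes was -0.01. The count over all genes depended on single samples, with 316 calls without WT replicate 1, 2 without either WT replicate 2 or WT replicate 3, 45 when Cul5 cKO replicate 2 was left out and 3 when Cul5 cKO replicate 3 was. The count of members was 0 whichever of the 6 samples was left out. The RNA came from whole cultures, so fewer cells of a type and less RNA per cell cannot be told apart.

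**Figure D1:**
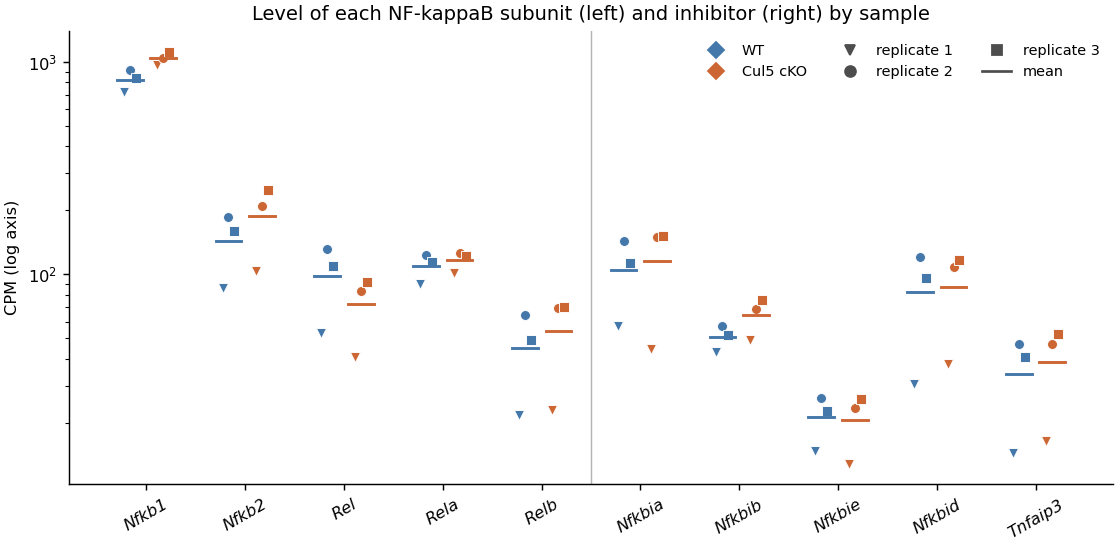
The level of each member in CPM on a log axis, by sample, with blue for WT and orange for Cul5 cKO, symbols for replicates and bars for the mean of 3 samples. Replicate 1, the triangle, is the lowest sample of its genotype for all 10 members, and only Nfkb1 has genotypes that do not overlap.

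Nfkb1 encodes p105 and its product p50, which has no activation domain of its own and pairs with Rela or Rel. The gene lies at chr3:135584655-135691547 of GRCm38. It was at 724, 915 and 839 CPM in WT replicates 1, 2 and 3 and at 963, 1039 and 1115 CPM in Cul5 cKO replicates 1, 2 and 3. All Cul5 cKO samples lay above all WT samples, as they did for 14% of all genes tested, and with either direction for 27.5%. WT cells averaged 826 ± 95.8 CPM (SD, n = 3). Cul5 cKO cells averaged 1039 ± 76.0 CPM (SD, n = 3), and the fitted difference was 25.8%. The log2 fold change was 0.33 (SE 0.10, 95% interval 0.10 to 0.56), with an edgeR adjusted p of 0.13 and an exact two-sided permutation p of 0.1, the smallest that 3 samples against 3 can give. For replicates 2 and 3 alone it was 0.30, with an edgeR adjusted p of 0.0526. DESeq2 on the same counts gave 0.33 with an adjusted p of 0.0415, and edgeR with a term for replicate 1 gave 0.33 with an adjusted p of 0.0164, so the call of this gene depended on the tool and on the design.

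The second precursor, Nfkb2, encodes p100, which is trimmed to p52 and before that acts as an inhibitor of Relb. Its gene (chr19:46304320-46312385) was at 86.5, 187 and 159 CPM in the WT samples and at 104, 211 and 249 CPM in the Cul5 cKO samples. The genotypes overlapped, and replicate 1 was low in both. The log2 fold change was 0.39 (SE 0.37, 95% interval -0.47 to 1.25, edgeR adjusted p = 0.584), and for replicates 2 and 3 alone 0.40 (edgeR adjusted p = 0.0687). Genes on the opposite strand share 16.3% of the 31-base words of its transcripts, among them Psd at 9.63 to 19.0 CPM, and whether reads were assigned by strand is not given in the sources used here.

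Rel, which encodes c-Rel, the subunit most tied to T cell activation and IL-2 production, was the 1 subunit with a lower mean in Cul5 cKO cells. The gene (chr11:23736847-23770970) was at 52.7, 132 and 110 CPM in the WT samples. In the Cul5 cKO samples it was at 40.8, 83.4 and 92.6 CPM. Replicates 2 and 3 did not overlap between genotypes, and replicate 1 was lower than either in both. With all samples the log2 fold change was -0.43 (SE 0.39, 95% interval -1.35 to 0.48, edgeR adjusted p = 0.564), and leaving out single samples moved it between -0.75 and -0.12. For replicates 2 and 3 alone it was -0.47 (SE 0.10, 95% interval -0.72 to -0.23), which passed with an edgeR adjusted p of 0.0442.

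Rela encodes p65, the main activating subunit of the fast route. From chr19:5637483-5648130 it gave 90.0, 124 and 114 CPM in the WT samples and 102, 127 and 122 CPM in the Cul5 cKO samples. The genotypes overlapped. Rela differed by 0.10 on the log2 scale (SE 0.14, 95% interval -0.21 to 0.42, edgeR adjusted p = 0.701), and by 0.06 without replicate 1 (edgeR adjusted p = 0.544). It turned to -0.023 without WT replicate 1.

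Relb encodes the subunit of the slower route and is itself a target of NF-kappaB. Its gene (chr7:19606217-19629438) was at 21.9, 64.5 and 49.4 CPM in the WT samples and at 23.1, 69.3 and 70.5 CPM in the Cul5 cKO samples. Replicate 1 was nearly equal in the genotypes and well below the other samples. Its log2 fold change was 0.28 (SE 0.50, 95% interval -0.89 to 1.44, edgeR adjusted p = 0.787), and 0.26 for replicates 2 and 3 alone (edgeR adjusted p = 0.188). Without WT replicate 1 it was -0.092.

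Nfkbia encodes IκBα, the inhibitor that is destroyed and remade within each round of signalling. It lies at chr12:55489410-55492647 and was at 57.0, 143 and 113 CPM in the WT samples and at 44.7, 150 and 152 CPM in the Cul5 cKO samples. Cul5 cKO replicates 2 and 3 lay above every WT sample, whereas Cul5 cKO replicate 1 lay below every WT sample. Nfkbia had a log2 fold change of 0.15 (SE 0.49, 95% interval -1.0 to 1.30, edgeR adjusted p = 0.896), and 0.22 for replicates 2 and 3 alone (edgeR adjusted p = 0.223). It took the opposite sign without WT replicate 1 (-0.16), Cul5 cKO replicate 2 (-0.074) or Cul5 cKO replicate 3 (-0.097).

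Nfkbib encodes IκBβ, an inhibitor that is degraded and remade more slowly. At chr7:28758251-28767512, its gene was at 43.3, 57.3 and 52.1 CPM in the WT samples. The Cul5 cKO samples held 49.2, 68.5 and 76.0 CPM. Only Cul5 cKO replicate 1 lay within the WT range. With all samples the log2 fold change was 0.35 (SE 0.17, 95% interval -0.06 to 0.76, edgeR adjusted p = 0.305). For replicates 2 and 3 alone it was 0.39 (SE 0.08, 95% interval 0.19 to 0.59), which passed with an edgeR adjusted p of 0.0439. Opposite-strand transcripts share 14% of its 31-base words, nearly all with Ccer2, which was at 0 CPM in every sample. Sirt2, which shares 13 of these words, was at 66.1 to 67.9 CPM in the WT and 72.5 to 75.9 CPM in the Cul5 cKO samples, and its part in the value of Nfkbib was not tested.

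Nfkbie encodes IκBε, a further cytoplasmic inhibitor, and had the mean nearest to equality. Its gene (chr17:45555703-45563169) was at 14.7, 26.3 and 22.8 CPM in the WT samples and at 12.9, 23.4 and 25.9 CPM in the Cul5 cKO samples. The genotypes overlapped. On the log2 scale the difference was -0.03 (SE 0.30, 95% interval -0.74 to 0.68, edgeR adjusted p = 0.973), and -0.02 for replicates 2 and 3 alone (edgeR adjusted p = 0.948). It turned positive, to 0.20, 0.015 and 0.23, when WT replicate 2, WT replicate 3 and Cul5 cKO replicate 1 were left out in turn.

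Nfkbid encodes IκBNS, a nuclear member of the inhibitor family that binds p50 and modulates its targets. The gene (chr7:30421732-30428746) was at 30.4, 121 and 96.4 CPM in the WT samples and at 37.8, 108 and 117 CPM in the Cul5 cKO samples. The highest and the lowest sample were both WT. The fitted log2 fold change was 0.10 (SE 0.56, 95% interval -1.20 to 1.40, edgeR adjusted p = 0.943), and 0.03 for replicates 2 and 3 alone (edgeR adjusted p = 0.886). It was negative without WT replicate 1 (-0.32), Cul5 cKO replicate 2 (-0.072) or Cul5 cKO replicate 3 (-0.16).

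Tnfaip3 encodes A20, a ubiquitin-editing enzyme that shuts off signalling above the IKK kinases. From chr10:19000910-19015657 it gave 14.5, 47.0 and 40.7 CPM in the WT samples and 16.4, 47.1 and 52.3 CPM in the Cul5 cKO samples. Replicate 1 was far below the others in both genotypes. Tnfaip3 differed by 0.21 on the log2 scale (SE 0.53, 95% interval -1.03 to 1.44, edgeR adjusted p = 0.858), and by 0.16 for replicates 2 and 3 alone (edgeR adjusted p = 0.312). The difference became -0.20 without WT replicate 1 and -0.077 when Cul5 cKO replicate 3 was left out.

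**Figure D2:**
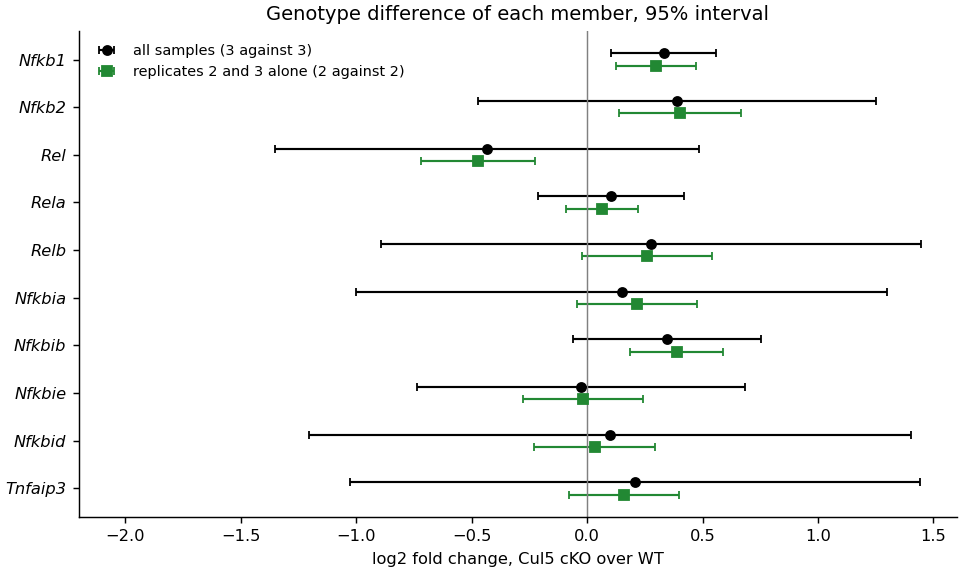
Log2 fold change of Cul5 cKO over WT for each member, with its 95% interval, from all samples (black circles, 3 against 3) and from replicates 2 and 3 alone (green squares, 2 against 2). The points of the same gene lie close together and the intervals without replicate 1 are narrower, for Tnfaip3 from -0.08 to 0.40 in place of -1.03 to 1.44, so that those of Nfkb2, Rel and Nfkbib come to exclude 0 while that of Nfkb1 does in both comparisons.

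The width of these intervals came with replicate 1, in which all 10 members were at their lowest in both genotypes. Of all genes tested, 22.0% had this pattern. The mean of replicates 2 and 3 over replicate 1 ranged from 1.21 for Nfkb1 to 3.57 for Nfkbid in WT cells, with a median of 2.13, and from 1.12 for Nfkb1 to 3.38 for Nfkbia in Cul5 cKO cells, with a median of 2.19. Over all genes the median was 1.01 in WT cells and 0.997 in Cul5 cKO cells. Nfkb2, Rel, Relb, Nfkbia, Nfkbid and Tnfaip3, that is 6 of 10 members, were lower by a fold of at least 2 in replicate 1 of both genotypes, as were 167 of all genes tested (1.29%). Of these 6, 5 had the kappaB consensus in a promoter window, and Relb had no window. Among the other 4, Rela and Nfkbib had windows without a match, and Nfkb1 had no window. Nfkbie had 1 match and fell just under the cut, at 1.66 in WT and 1.92 in Cul5 cKO cells. The share with the motif among all genes low in replicate 1 was not worked out, and a link between motif and pattern was not tested. The depth of replicate 1 was within 1% of that of replicate 2 in both genotypes, and the cause of the pattern was not tested.

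**Figure D3:**
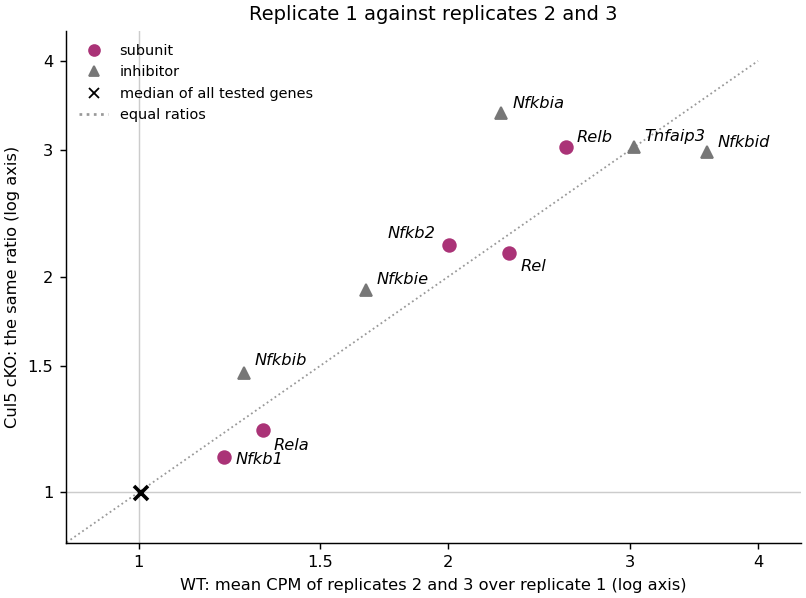
Mean CPM of replicates 2 and 3 divided by replicate 1, in WT (x axis) and Cul5 cKO (y axis), both on log axes, with circles for subunits, triangles for inhibitors and a cross for the median of all genes tested. Members spread from Nfkb1 at 1.21 and 1.12 to Nfkbid at 3.57 and 2.98, all above the cross. Nfkbia, at 2.25 and 3.38, lies above the line of equal ratios and has the highest Cul5 cKO ratio.

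Levels were compared between genes in TPM, which scales counts to transcript length. In WT cells Nfkb1 was highest at 362 ± 44.0 TPM (SD, n = 3), and its lowest WT sample was above the highest of Nfkbia, the next gene at 161 ± 73.1 TPM. Below it came Rela at 82.8, Nfkb2 at 67.7, Nfkbib at 66.0, Nfkbid at 65.2, Relb at 31.6, Rel at 18.4, Tnfaip3 at 12.7 and Nfkbie at 12.7 mean TPM. From Nfkbia on, each gene overlapped its neighbour in this order.

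Of the TPM of the 5 subunits together, Nfkb1 held between 60.7% and 73.0% in the 6 samples, whereas Rel held between 1.38% and 3.93%. Rel amounted to 3.14%, 6.48% and 5.19% of the TPM of Nfkb1 in WT replicates 1, 2 and 3. In Cul5 cKO replicates 1, 2 and 3 it amounted to 1.89%, 3.59% and 3.74%. The genotypes overlapped in this ratio, since WT replicate 1 lay below Cul5 cKO replicates 2 and 3. This is a description of values already compared above and was given no test.

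Most members were carried by 1 main transcript. Rel has a single annotated transcript, of 7466 bases, and Nfkbib-202 held between 93.9% and 96.8% of the counts of its gene. The protein-coding Nfkbia-201 held between 64.3% and 75.5%, and the other transcript of that gene, Nfkbia-202, which retains an intron, between 24.5% and 35.7%. For Nfkb1-201 the share varied more, from 43.9% in WT replicate 3, the shallowest library, to 66.1%. That of Relb-203 ran from 39.98% in the same sample to 68.05%, and that of Nfkbie-201 from 64.99% to 91.82%. These shares were estimated by kallisto from reads of 1 end and carry no error here.

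The genes whose pattern over the 6 samples was nearest to a member were sought for Nfkb1 and Nfkbib, the members with the lowest p. Among 8694 genes with a mean of at least 10 CPM, Scamp4, Pus1 and Atp2a2 were nearest to Nfkb1, with mean absolute differences of 0.012, 0.021 and 0.022 in centred log2 CPM. Nearest to Nfkbib were Pkn3, Pus7 and Ppif, at 0.0084, 0.028 and 0.032.

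The rest of the pathway was taken as 5 lists of 83 genes, of which 79 were tested, and 3 were called, Tnip2 and Lta higher and Cd28 lower in Cul5 cKO cells. The share was 3 of 79, against 1.03% of all genes, and 19 had an unadjusted p under 0.05, against 21.3%. DESeq2 called 6 of the 79, where it called 5.94% of 11660 genes, and the lists were not tested against that share. With edgeR, leaving out WT replicate 2, leaving out WT replicate 3 and leaving out Cul5 cKO replicate 3 each brought the count to 0. Leaving out Cul5 cKO replicate 1 brought it to 1, Lta, and leaving out Cul5 cKO replicate 2 to 2, Lta and Cd28. For replicates 2 and 3 alone 15 were called, 11 of them higher, among them Csf2, which was tested only there, against 8.83% of all genes.

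Of the 12 IKK and upstream kinases, 0 were called by edgeR and 3 had an unadjusted p under 0.05, with 5 higher and 7 lower by sign and a median log2 fold change of -0.04. The lowest were Ikbke, which encodes a relative of the IKK kinases, at -0.54 (edgeR adjusted p = 0.111), and Ikbkg, the regulatory subunit NEMO, at -0.23. The highest were Ripk1, a kinase at the TNF receptor, at 0.10, and Chuk, the kinase IKKα, at 0.08. Ikbke passed for replicates 2 and 3 alone, at -0.59 (edgeR adjusted p = 0.0263).

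The adaptors and ubiquitin machinery, 17 genes, had 0 calls by edgeR, 3 genes with an unadjusted p under 0.05, 12 genes higher and 5 lower by sign, and a median of 0.03. Malt1, a protease of the T cell receptor route, had the highest log2 fold change at 0.33 (edgeR adjusted p = 0.603) and was at 139, 246 and 220 CPM in WT and 140, 316 and 304 CPM in Cul5 cKO samples. Replicate 1 was again the lowest and nearly equal in the genotypes, and for replicates 2 and 3 alone Malt1 passed at 0.41 (edgeR adjusted p = 0.0334). Ube2n, the enzyme that builds K63-linked chains, was at 0.23, and the lowest genes were Birc2, the ubiquitin ligase cIAP1, at -0.34, and the adaptor Traf5 at -0.26.

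Among 16 other brakes and nuclear cofactors, 9 were higher and 7 lower by sign, with a median of 0.02. Tnip2, which encodes the A20-binding protein ABIN-2, was at 27.0, 29.8 and 25.1 CPM in the WT samples and at 41.1, 39.7 and 44.0 CPM in the Cul5 cKO samples. All Cul5 cKO samples were above all WT samples, and replicate 1 was not low in either. The gene rose with a log2 fold change of 0.60 (SE 0.09, edgeR adjusted p = 0.0325), and by 0.58 for replicates 2 and 3 alone (edgeR adjusted p = 0.0345). DESeq2 called it as well. It was not called with counts scaled from TPM, with libraries thinned to the shallowest or with limma on log2 TPM. Of the fits with a sample left out, only that without WT replicate 1 called Tnip2. Otulin, which takes apart linear ubiquitin chains, followed at 0.35 (edgeR adjusted p = 0.177) and passed for replicates 2 and 3 alone at 0.45 (edgeR adjusted p = 0.0417). The lowest were N4bp1 at -0.21 and Tnip1, which encodes ABIN-1, at -0.13.

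The 13 receptors that signal to NF-kappaB spread more widely, with 7 higher and 6 lower by sign and a median of 0.03. Cd28, the co-stimulatory receptor, was at 88.2, 120 and 125 CPM in the WT samples and at 46.4, 56.3 and 45.0 CPM in the Cul5 cKO samples. The genotypes did not overlap. Cd28 fell by 1.17 on the log2 scale (SE 0.15, edgeR adjusted p = 0.0205), with -1.27 for replicates 2 and 3 alone (edgeR adjusted p = 0.00798). Cd27, a co-stimulatory receptor of the TNF family, was at -1.19 (edgeR adjusted p = 0.199) and passed without replicate 1 at -1.26 (edgeR adjusted p = 0.0297). Il1rl1, the IL-33 receptor, and Ltbr, the lymphotoxin receptor, had the highest values at 1.93 and 1.70, and neither passed. Both rested on Cul5 cKO replicate 2, which held 8.76 CPM of Il1rl1 against at most 1.77 elsewhere and 3.33 CPM of Ltbr against at most 0.69. The same sample had the highest summed myeloid markers, at 12.8 CPM, whose part in these values was not tested. Named after their values were seen, Tnfrsf4 (OX40) at 0.41, Tnfrsf8 (CD30) at 1.11 and Cd40 at 0.46 were higher and Tnfrsf9 (4-1BB) at -0.52 lower for replicates 2 and 3 alone, with edgeR adjusted p-values of 0.0293, 0.0338, 0.0446 and 0.0450.

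Of 25 target genes of NF-kappaB in T cells, 21 were tested, with 15 higher and 6 lower by sign and a median of 0.27. Lta, which encodes lymphotoxin alpha, was at 502, 425 and 406 CPM in the WT samples and at 1144, 853 and 1253 CPM in the Cul5 cKO samples. It had no overlap between genotypes and was not low in replicate 1. Lta rose with a log2 fold change of 1.28 (SE 0.15, edgeR adjusted p = 0.0164), and 1.34 for replicates 2 and 3 alone (edgeR adjusted p = 0.0169). The chemokine Ccl3 had the highest value, 1.31 (edgeR adjusted p = 0.626), but was under the floor of 3 counts in replicate 1 of both genotypes and reached at most 5.79 CPM. The lowest were Bcl2a1b, an anti-apoptotic gene whose near-identical copies may share its reads, at -0.48, and Cd83, an activation marker, at -0.47. For replicates 2 and 3 alone, Tnf at 0.84, Icam1 at 0.76 and Ier3 at 1.21, named after their values were seen, passed as higher with edgeR adjusted p-values of 0.00682, 0.0134 and 0.0199.

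The pattern of replicate 1 was also seen in the target genes, of which 19 of 21 were lowest there in both genotypes, and 7 by a fold of at least 2. Among these 7, Ccl3 and, named after their values were seen, Il2 and Ccl4 were at 0 to 0.22 CPM in replicate 1, near the floor of 3 counts. Of 13 receptors, 6 were lowest in replicate 1 in both genotypes, and 3 by a fold of at least 2, Cd27, Ltbr and Il1rl1. For Ltbr, Cul5 cKO replicates 1 and 3 were at 0.56 and 0.62 CPM, and for Il1rl1 at 1.0 and 1.33 CPM. Their Cul5 cKO ratios thus rested on replicate 2, and Ltbr was under the floor in WT replicate 3, at 0.51 CPM. Lowest in replicate 1 in both genotypes were also 5 of 12 kinases, 8 of 17 adaptor and ubiquitin genes and 4 of 16 other brakes. In these 3 lists, 0 were lower by a fold of at least 2. Of all genes tested, 22% were lowest there in both genotypes, and 1.29% were lower by a fold of at least 2. The share of the other brakes was thus near that of all genes, and no list was tested against it. Il2, named after its values were seen, was at 0.17 CPM in WT replicate 1 and 0.087 CPM in Cul5 cKO replicate 1, where the other samples had 3.54 to 8.59 CPM.

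**Figure D4:**
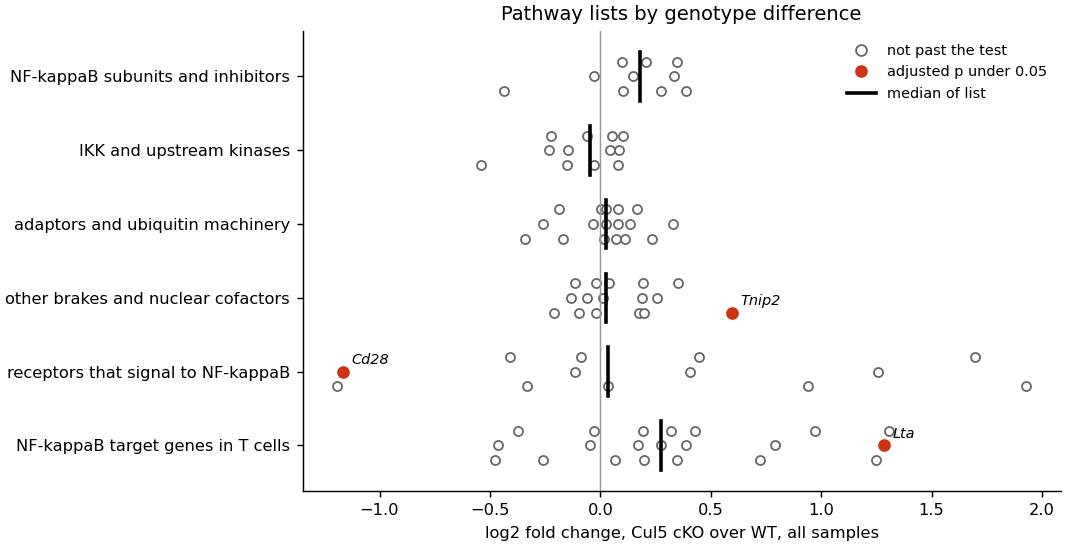
Log2 fold change of Cul5 cKO over WT from all samples for the members and the 5 pathway lists, with open circles for genes that did not pass, filled circles for those with an adjusted p under 0.05 and a black bar for the median of each list. Medians lie between -0.04 and 0.27, and Tnip2, Cd28 and Lta are the genes that passed.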

How the data were processed

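Poly-A RNA of 3 WT and 3 Cul5 cKO samples of cells cultured under Th9 conditions was sequenced in single-end reads. Per the labels and methods, the authors assigned reads to GRCm38 transcripts with kallisto 0.46.2 and deposited, per transcript, estimated counts (not normalized), TPM and lengths. They also deposited a table by gene that holds log2 CPM after TMM normalization, made with edgeR 3.34.0. Its columns of log2 fold change and p-values hold their own comparison and were not used.

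Estimated counts were summed by gene with GENCODE vM21, which matched 116640 of 119414 transcripts (97.7%), and rounded. The test was edgeR 4.0.16's quasi-likelihood test in R 4.3.3, with TMM and edgeR's default expression filter, and a gene was called at an adjusted p under 0.05. Levels are CPM with TMM library sizes. The floor of 3 counts equals 0.759 CPM in WT replicate 3 and 0.128 to 0.133 CPM elsewhere, and covers counting error only. limma 3.58.1 and DESeq2 1.42.0 served as alternatives. The fit was tested on simulated data, with larger changes than those of the members and no shift of replicate 1. That test does not bear on changes of their size.

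A gene of 1 pathway list is not reported here and was left out of its counts. The members and lists were chosen with earlier results of these data known. Beside the 10 members, genes are named if called, if among the 2 highest and 2 lowest log2 fold changes of a pathway list, or if nearest in pattern to the 2 members with the lowest p.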

Additional observations from a re-analysis of the deposited data

How the results depend on the processing

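The coefficient of variation between replicates was 16.1%. With the other libraries thinned to the depth of WT replicate 3, 134 genes were called in place of 133. The count of members called, 0, became 1 with DESeq2, the study's criterion (p under 0.05 gene by gene with equal variances assumed and no adjustment, unlike the other counts) or limma's voom with quality weights (Nfkb1 in each), 4 with a term for replicate 1 (Nfkb1, Nfkb2, Rel, Nfkbib) and 2 for replicates 2 and 3 alone (Rel, Nfkbib). It was 0 to 0 with each sample left out. Pathway calls, 3, became 6, 14, 8, 19 and 15 under the same 5 alternatives, 0 with limma on the gene-level table and 1 on log2(TPM + 1) or log2(TPM + 0.1), and ranged from 0 to 4 with a sample left out. Calls over all genes, 133, became 693, 2362, 1259, 1688 and 1153, then 4, 27 and 30, and 228 without the filter and 60 with counts scaled from TPM, and ranged from 2 to 316. With library size in place of TMM, 149 genes were called, 72 higher and 77 lower, against 79 and 54, and with at least 10 counts in every sample 145, 73 higher and 72 lower. Of log2 fold changes, Nfkbie turned to 0.017 with counts scaled from TPM. Without passing or changing sign, Nfkbia moved to 0.011 on log2(TPM + 0.1), Nfkbid to 0.0038 with voom, Tnfaip3 to 0.051 with thinned libraries and Rela to 0.026 on log2(TPM + 1). With a sample left out, members ranged from 0.25 to 0.41 for Nfkb1, 0.12 to 0.68 for Nfkb2, -0.75 to -0.12 for Rel, -0.023 to 0.21 for Rela, -0.092 to 0.70 for Relb, -0.16 to 0.54 for Nfkbia, 0.21 to 0.51 for Nfkbib, -0.26 to 0.23 for Nfkbie, -0.32 to 0.55 for Nfkbid and -0.20 to 0.62 for Tnfaip3. The causes were not tested.

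The replicate numbers share no stated origin, and deviations from the group means correlated at 0.37, 0.21 and 0.025 for numbers 1, 2 and 3, so the numbers were not taken as pairs. In these data, 4 of 6 samples correlated best with their own number, namely those numbered 1 and 2 in both genotypes. Each match is thus counted from both sides, and the share that chance would give was not worked out. With the replicate number as a block, 2 members (Rel and Nfkb1), 15 pathway genes and 848 of all genes were called.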
